A study of Mus musculus with 6 samples.

Results

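Myosin light chains are the small subunits that wrap the lever arm of the myosin heavy chain. Each head carries 1 regulatory and 1 essential chain, and heart muscle makes chamber-specific forms of both. Described here are the regulatory chain genes Myl2 (ventricular), Myl7 (atrial) and Mylpf (fast skeletal), the essential chain genes Myl3 (ventricular), Myl4 (atrial) and Myl1 (fast skeletal), and Mylk3, the kinase of heart muscle that phosphorylates the ventricular regulatory chain. They were taken from the count table by gene symbol. All 7 were found among its 24062 symbols, and all 7 passed the filter on low counts.

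As background, phosphorylation of the regulatory chain moves the myosin heads towards actin and raises the force made at a given calcium level. The essential chain steadies the lever arm. The atrial forms are also made in the embryonic ventricle and recede there as the ventricle matures, while the ventricular forms are hallmarks of ventricular muscle.

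The libraries were made from the ventricles of male C57/Bl6N mice aged 1 day. The 3 control libraries came from mice without Cre (CreNEG), and the 3 Med12cKO libraries from mice with Cre (CrePOS) and a cardiac-specific knockout of Med12, a subunit of Mediator, the bridge between transcription factors and the polymerase. The labels name neither the promoter that drives Cre nor the floxed allele in the controls, and they do not tie a library to 1 animal, so the p-values speak only of the spread among these 6 libraries, which may be technical. Cre was present in the Med12cKO mice only, so an effect of Cre and one of Med12 loss cannot be told apart.

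Values are TMM-scaled CPM, that is, read counts per gene brought to a common library size, given as mean ± SD with n = 3 per group. Depth ran from 8453346 to 10911698 counts, and the 7 genes took between 0.998% and 1.46% of each library. Med12 itself measured 103, 176 and 113 CPM in control replicates 1 to 3 and 61.6, 85.0 and 41.3 CPM in Med12cKO replicates 1 to 3, and the groups did not overlap (log2 fold change −1.06, SE 0.30; adjusted p = 0.765 in edgeR and 0.0246 in DESeq2). Control replicate 3 and Med12cKO replicate 1 held thymus transcripts: the 11 T-cell genes of the thymus list summed to 808 and 815 CPM there and to between 3.43 and 5.52 CPM in the other 4 libraries. The differences between groups come from edgeR's quasi-likelihood test, adjusted by Benjamini-Hochberg over the 13629 genes tested. At an adjusted p under 0.05 it called 3 genes, 0.022% of those tested (0.00734% higher and 0.0147% lower), and 0 of the 7 members; at an unadjusted p under 0.05 it reached 515 genes, 3.78% (1.61% lower and 2.16% higher), and 1 of the 7 members. The groups did not overlap for 8.23% of all genes and for 1 of the 7 members. DESeq2 called 65 genes, of which 1 was a member. In each case the member was Myl7.

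Myl7, the atrial regulatory light chain, stood below every control in each Med12cKO library. It measured 1240.4, 1149 and 901 CPM in the controls and 496, 609 and 432 CPM in the Med12cKO libraries. The groups did not overlap, as was the case, in the downward direction, for 3.64% of all genes tested. Group means were 1097 ± 175 CPM in control and 512 ± 89.4 CPM in Med12cKO, or 46.7% of control, with a log2 fold change of −1.10 (SE 0.18) and a 95% interval of the fold from 0.353 to 0.618. In edgeR the unadjusted p was 1.5e-04, the rank 14 among all genes, and the adjusted p 0.129, which does not pass. DESeq2 gave a log2 fold change of −1.09 and an adjusted p of 2.1e-07, which passes. Permuting the 6 libraries over all 20 arrangements (exact test, two-sided) gave p = 0.10, the smallest that 3 against 3 allow. Myl7 lies on chromosome 11, 5896637 to 5898782, minus strand (GRCm38), and GENCODE M21 gives it a single transcript with no exon base shared with another gene.

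Myl2, the ventricular regulatory light chain, was the most abundant of the 7. Its controls measured 8075, 6667 and 6339 CPM and its Med12cKO libraries 4872, 5229 and 7379 CPM. Med12cKO replicates 1 and 2 lay below all controls, and replicate 3 lay within their range, so the groups overlapped. The means were 7027 ± 922 and 5826 ± 1356 CPM (log2 fold change −0.27, SE 0.21, 95% interval of the fold 0.597 to 1.15; edgeR unadjusted p = 0.229). Without Med12cKO replicate 3 the log2 fold change of Myl2 was −0.48 (edgeR unadjusted p = 0.020, adjusted p = 0.591). The gene lies on chromosome 5, 122100951 to 122113472, plus strand, and shares 3.08% of its exon bases with Ccdc63 on the opposite strand.

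Mylpf, the regulatory chain of fast skeletal muscle, was high in 1 library. It measured 4.83, 5.14 and 6.22 CPM in the controls and 43.4, 7.30 and 5.60 CPM in Med12cKO. Apart from Med12cKO replicate 1, where 385 reads were counted, no library held more than 74 reads. The means were 5.40 ± 0.726 and 18.8 ± 21.4 CPM, and the groups overlapped. The log2 fold change of 1.79 (SE 0.89, 95% interval of the fold 0.718 to 16.6; edgeR unadjusted p = 0.099) was 0.24 without Med12cKO replicate 1. The counting error at the lowest count, 42 reads in control replicate 1, was 15.4%. Mylpf lies on chromosome 7, 127208890 to 127214298, plus strand.

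**Figure D1:**
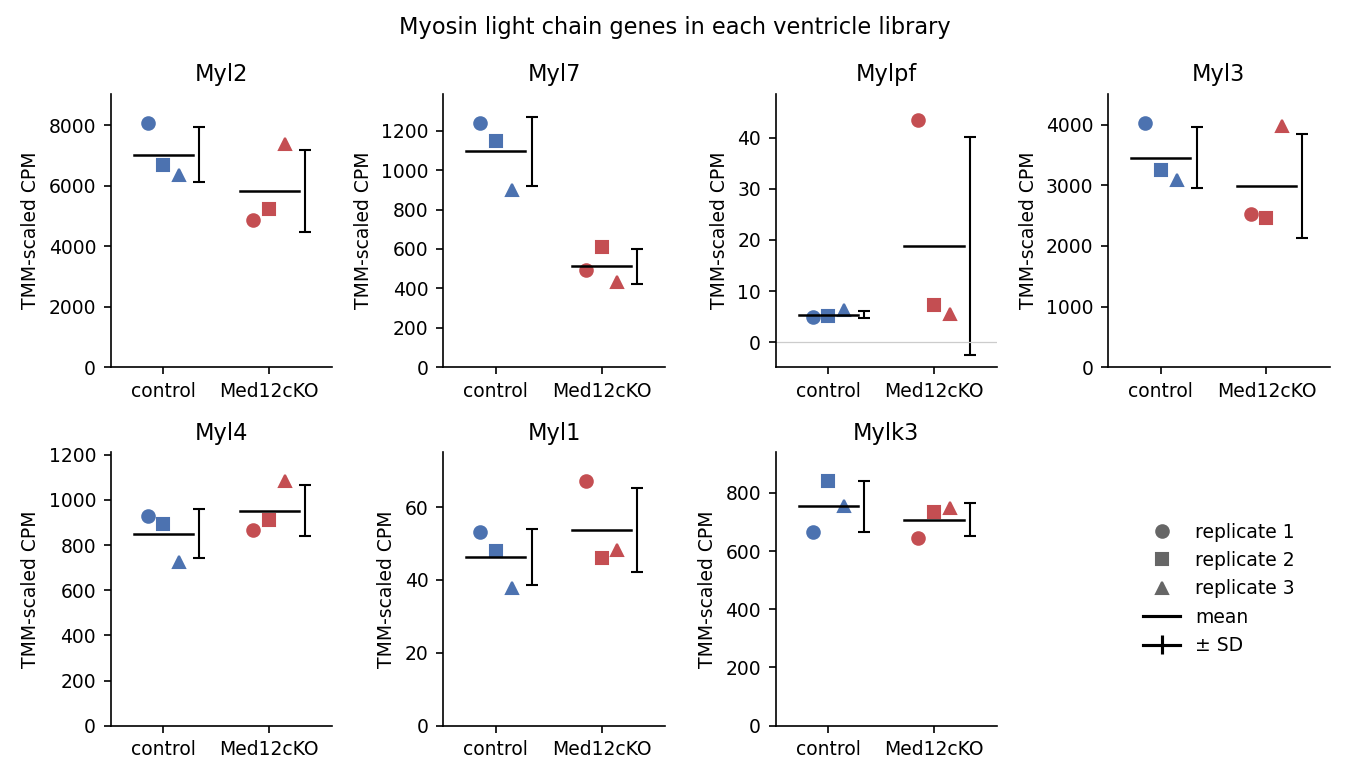
TMM-scaled CPM of the 7 genes (y axes, each with its own scale) in the control and Med12cKO libraries, with points for replicates, lines for means and bars for ± SD. Only the Myl7 panel shows groups without overlap, with controls from 901 to 1240.4 CPM and Med12cKO libraries from 432 to 609 CPM, and the Mylpf panel shows 1 high library at 43.4 CPM.

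Among the essential chains the atrial form did not share the low values of Myl7. Myl4 measured 931, 895 and 727 CPM in the controls and 867, 910.3 and 1083 CPM in Med12cKO, with overlapping groups and the highest value in Med12cKO replicate 3. The means were 851 ± 109 and 953 ± 114 CPM, a log2 fold change of 0.16 (SE 0.16) whose 95% interval of the fold, 0.879 to 1.43, includes 1 (edgeR unadjusted p = 0.317). The intervals of the fold of Myl4 and Myl7 did not overlap. Myl4 lies on chromosome 11, 104550663 to 104595753, plus strand.

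Myl3, the ventricular essential chain, measured 4031, 3251 and 3087 CPM in the controls and 2524, 2465 and 3979.7 CPM in Med12cKO, so replicates 1 and 2 lay below all controls and replicate 3 did not, as for Myl2. The means were 3456 ± 504 and 2989.7 ± 858 CPM (log2 fold change −0.21, SE 0.22, 95% interval of the fold 0.612 to 1.22; edgeR unadjusted p = 0.369). Without Med12cKO replicate 3 the log2 fold change of Myl3 was −0.47 (edgeR unadjusted p = 0.021, adjusted p = 0.594). Over the 6 libraries Myl2 and Myl3 had a Pearson r of 0.98 on log2 CPM, a description over libraries that share their depth and scaling, and their coefficients of variation in Med12cKO, 23.3% and 28.7%, were above those in control, 13.1% and 14.6%. Myl3 lies on chromosome 9, 110741861 to 110769798, plus strand, and shares 4.65% of its exon bases with Pth1r on the opposite strand.

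Myl1, the fast skeletal essential chain, measured 53.2, 47.9 and 37.9 CPM in the controls and 67.1, 46.0 and 48.2 CPM in Med12cKO. Its highest library was Med12cKO replicate 1, as for Mylpf, but by a smaller factor, and the groups overlapped (means 46.3 ± 7.77 and 53.8 ± 11.6 CPM, log2 fold change 0.22, SE 0.18, 95% interval of the fold 0.874 to 1.54; edgeR unadjusted p = 0.266). Without control replicate 3 and Med12cKO replicate 1 the log2 fold change was −0.11. Myl1 lies on chromosome 1, 66924295 to 66945404, minus strand.

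Mylk3, the kinase, measured 667, 840.1 and 754 CPM in the controls and 644, 733 and 748 CPM in Med12cKO. The groups overlapped, with means of 754 ± 86.5 and 709 ± 56.0 CPM (log2 fold change −0.09, SE 0.14, 95% interval of the fold 0.754 to 1.17; edgeR unadjusted p = 0.543). Mylk3 lies on chromosome 8, 85324303 to 85386345, minus strand. The longest exact run shared by transcripts of any 2 members was 29 bases, between Myl3 and Myl4, and Myl2 and Myl7 shared at most 16. How reads with more than 1 match were counted is not given in the sources used here.

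**Figure D2:**
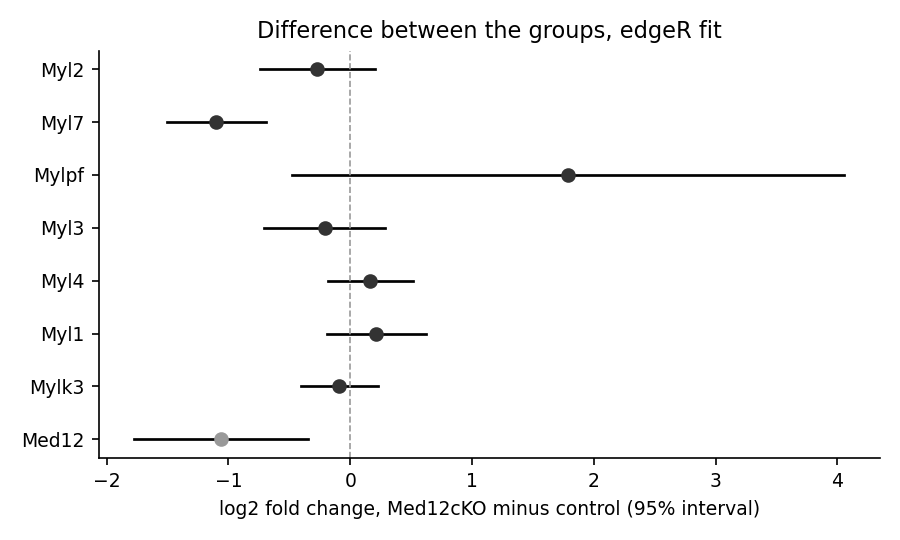
Log2 fold change of each gene, Med12cKO minus control (x axis), with the 95% interval of the edgeR fit. The interval of Myl7, −1.50 to −0.69, and that of the targeted gene Med12 do not reach 0, and those of the other 6 genes do.

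The start regions of 4 members are printed because they hold a CArG box or a CAGCTG near a start that GENCODE also places there. They come from RefSeq (GRCm38.p6), and all 7 symbols had an entry, with 9 windows of 250 bases before a start. Motifs were the CArG box, which binds serum response factor, and CAGCTG, an E box of the kind bound by the myogenic factors of skeletal muscle, each on both strands. A CArG box was found in the windows of Myl7 and Myl3, in 2 of the 9 windows, and in 1.47% of all 32851 promoter windows of that length. CAGCTG was found in the windows of Mylpf and Myl1 and in 1 of the 2 of Myl2, and in 13% of all windows. The RefSeq starts of Myl2 lie 7762 and 8227 bases from the nearest GENCODE start, so these windows may not be its promoter and are not printed. Its general form CANNTG was found in 7 of the 9 windows and in 66.2% of all, and GATA in 6 of the 9 and in 53.6% of all, the Myl2 windows included. The MEF2 site was found in 0 of the 9 windows and in 2.92% of all. Capitals mark the CArG box in Myl7 (chr11:5898783-5899032, minus strand) and Myl3 (chr9:110763428-110763645, plus strand), and CAGCTG in Mylpf (chr7:127211358-127211607, plus strand) and Myl1 (chr1:66945144-66945306, minus strand). Where one of the GENCODE starts used here lay inside the window, the bases after it were left out, 32 in Myl3 and 87 in Myl1. The printed stretches of Mylpf, Myl3 and Myl1 still lie within the span GENCODE gives their gene, so a start further upstream is annotated too.
Myl7: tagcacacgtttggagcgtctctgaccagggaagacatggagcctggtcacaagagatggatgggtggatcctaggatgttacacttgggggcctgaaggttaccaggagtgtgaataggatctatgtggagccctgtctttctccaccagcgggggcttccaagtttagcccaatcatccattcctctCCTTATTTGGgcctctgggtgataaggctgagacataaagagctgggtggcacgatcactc
Myl3: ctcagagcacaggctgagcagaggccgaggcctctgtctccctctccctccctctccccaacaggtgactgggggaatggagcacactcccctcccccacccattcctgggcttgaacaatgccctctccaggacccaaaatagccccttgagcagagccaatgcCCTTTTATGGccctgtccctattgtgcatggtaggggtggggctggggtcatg
Mylpf: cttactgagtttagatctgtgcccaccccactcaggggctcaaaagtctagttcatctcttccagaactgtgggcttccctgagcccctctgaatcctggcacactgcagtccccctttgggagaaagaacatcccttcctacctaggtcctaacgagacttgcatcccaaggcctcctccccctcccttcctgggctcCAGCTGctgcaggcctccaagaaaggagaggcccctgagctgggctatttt
Myl1: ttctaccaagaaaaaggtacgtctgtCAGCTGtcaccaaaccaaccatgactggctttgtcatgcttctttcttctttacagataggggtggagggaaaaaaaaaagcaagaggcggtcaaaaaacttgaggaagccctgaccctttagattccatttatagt
The CArG box lies 61 to 52 bases before the RefSeq start of Myl7 and 85 to 76 before that of Myl3. The pair differed in their values: Myl7 was lower in all Med12cKO libraries, and Myl3 was not in replicate 3. A match describes letters only. Srf, which encodes serum response factor, had a log2 fold change of 0.24 (SE 0.14; edgeR unadjusted p = 0.111).

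To compare levels between genes, CPM were divided by the length of the longest coding transcript in kilobases (CPM per kb). In control the order from the top was Myl2 (7904 ± 1037), Myl3 (3688 ± 538), Myl7 (1859 ± 297), Myl4 (902 ± 116), Mylk3 (204 ± 23.4), Myl1 (42.8 ± 7.18) and Mylpf (7.05 ± 0.947). In Med12cKO the levels were 6554 ± 1525 for Myl2, 3191 ± 916 for Myl3, 1011 ± 121 for Myl4, 868 ± 151 for Myl7, 192 ± 15.2 for Mylk3, 49.7 ± 10.7 for Myl1 and 24.5 ± 27.9 for Mylpf. Myl7 and Myl4 thus stood in opposite order in the 2 groups, but in Med12cKO their means differed by less than the SD of Myl7. This order depends on the length used. The longest transcript of Myl4 has 943 bases and its summed exon length is 4637 bases, while both are 590 bases for Myl7. With the summed exon length the level of Myl4 would be lower and that of Myl7 the same. Myl1 and Mylpf are neighbours whose means in Med12cKO differed by less than the SD of Mylpf. With the longest transcript as length, the means of all other neighbours, and of every pair of neighbours in control, differed by more than either SD.

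Among the regulatory chains the atrial form took a smaller share in every Med12cKO library. Myl7 made up 18.8%, 20.6% and 17.6% of the summed CPM per kb of Myl2, Myl7 and Mylpf in the controls, and 13.2%, 14.9% and 8.11% in Med12cKO. Every Med12cKO share lay below every control share, with means of 19.0% ± 1.50 and 12.1% ± 3.53. Among the essential chains the mean share of the atrial form was higher in Med12cKO, but the groups overlapped. Myl4 made up 18.5%, 21.3% and 18.8% of the sum of Myl1, Myl3 and Myl4 in the controls and 25.0%, 26.5% and 21.1% in Med12cKO, where replicate 3 lay within the control range. The skeletal forms stayed small, with Mylpf at most 0.889% and Myl1 at most 1.69% of their class, both in Med12cKO replicate 1. These shares are descriptions and carry no test, and with the summed exon length of each gene in place of the longest transcript the mean Myl7 share was 33.9% in control and 22.9% in Med12cKO, still without overlap.

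**Figure D3:**
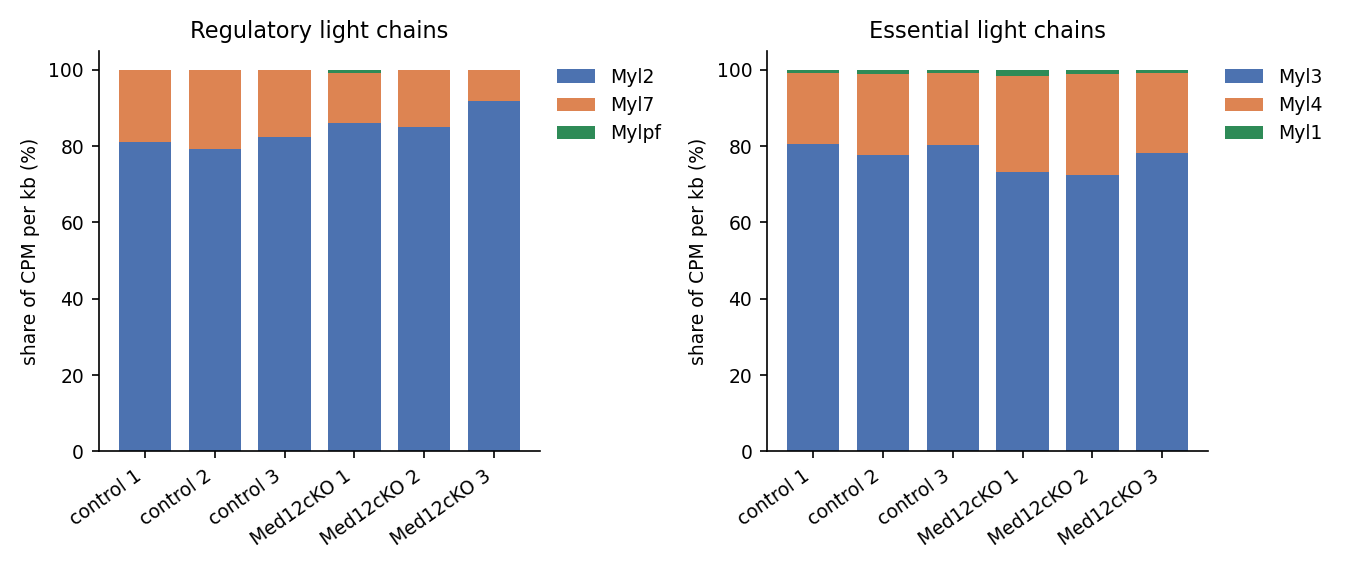
Share of each isoform in the CPM per kb of its class (y axis, percent) in each library (x axis), regulatory chains on the left and essential chains on the right. The Myl7 segment spans 17.6% to 20.6% in the controls and 8.11% to 14.9% in Med12cKO, and the Myl4 segment 18.5% to 21.3% and 21.1% to 26.5%.

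Ratios between members can be read within single libraries. The ratio of Myl7 to Myl4 in CPM per kb was 2.13, 2.05 and 1.98 in the controls and 0.914, 1.07 and 0.638 in Med12cKO, with no overlap. It uses the same Myl7 values again, and how many of all genes had a lower ratio to Myl4 was not counted. The ratio of Myl2 to Myl3 was 2.11, 2.16 and 2.16 against 2.03, 2.24 and 1.95, with overlapping groups. All regulatory chains together stood at 2.10, 2.12 and 2.11 times all essential chains in the controls (SD 0.0115). In Med12cKO they stood at 1.74, 1.90 and 1.66 times (SD 0.1235). The regulatory sum holds the same Myl7 values again, and no background over all genes was counted for it. Transcript ratios need not equal those of the proteins, which were not measured here.

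The members were also set against 8 genes of heart muscle cells, namely Tnnt2, Tnni3, Actc1, Myh6, Ttn, Mybpc3, Nkx2-5 and Ryr2. None of the 8 was at 0, and their summed level was 33497 to 42514 CPM in control and 28591 to 36110.3 CPM in Med12cKO. Of the 8, 0 passed edgeR and 7 had a negative log2 fold change, against 47.8% of all genes. Only Ryr2 (log2 fold change −0.78, SE 0.16) was itself lower without overlap, against 3.64% of all genes. In bulk tissue, fewer muscle cells and less RNA per cell cannot be told apart. Relative to Tnnt2, cardiac troponin T, Myl2 measured 1.24, 1.08 and 1.14 in the controls and 1.21, 1.22 and 1.29 in Med12cKO. Its low values in Med12cKO replicates 1 and 2 were thus shared by Tnnt2, but not by every muscle gene. Relative to Ttn these libraries measured 255 and 199 against 271 to 351 in control, and relative to Mybpc3 6.67 and 6.41 against 6.81 to 10.5. Both were also below all controls relative to Nkx2-5, but not both relative to Tnni3, Actc1, Myh6 or Ryr2. Myl7 relative to Tnnt2 measured 0.286, 0.280 and 0.244 against 0.186, 0.215 and 0.114. Such a lower ratio without overlap was found for 0.264% of all genes tested. Myl7 had one against 7 of the 8 muscle genes, and the ratio to Ryr2, the calcium release channel, overlapped. The share of all genes with such a lower ratio was 0.374% against Tnni3, 0.404% against Actc1, 0.22% against Myh6, 1.56% against Ttn, 1.63% against Mybpc3, 2.62% against Nkx2-5 and 0.044% against Ryr2. Myl4 relative to Tnnt2 measured 0.134, 0.136 and 0.123 against 0.203, 0.201 and 0.178, higher without overlap. A higher ratio to Tnnt2 was, however, found for 33.7% of all genes, so this value is not set apart from the background. Myl4 was also higher against Tnni3, as were 13.2% of all genes, and Ryr2, as were 76.1%. Against the other 5 it overlapped, and there 0.851% (Actc1), 11.3% (Myh6), 2.82% (Ttn), 4.44% (Mybpc3) and 0.433% (Nkx2-5) of all genes were higher. Myl2 and Myl3 each overlapped against 7 of the 8 and were lower against Nkx2-5.

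**Figure D4:**
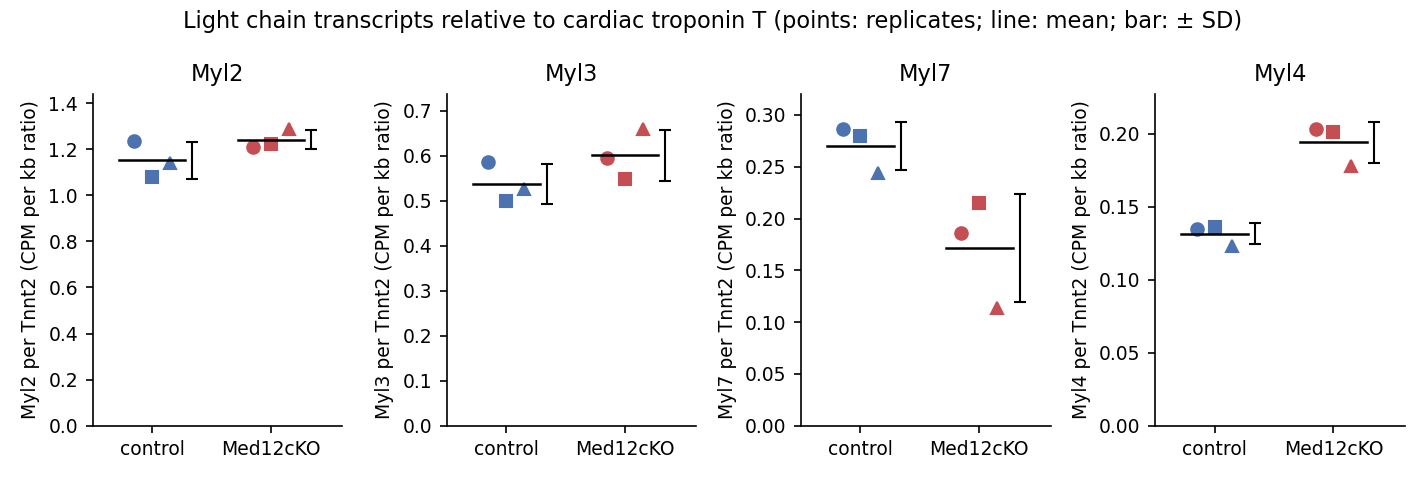
Ratio of the ventricular and atrial light chains to Tnnt2 in CPM per kb (y axes, each with its own scale) by group, with points for replicates, lines for means and bars for ± SD. Myl7 lies at 0.244 to 0.286 in the controls and 0.114 to 0.215 in Med12cKO, Myl4 at 0.123 to 0.136 and 0.178 to 0.203, and the Myl2 and Myl3 groups overlap.

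Because Myl7 is an atrial gene, other atrial markers are given beside it. Of 12 such genes, all tested, 0 passed edgeR, 10 had a negative log2 fold change, 5 had an unadjusted p under 0.05, all lower, and 4 were lower without overlap. Over all genes tested, 47.8% had a negative log2 fold change, 1.61% were lower at an unadjusted p under 0.05 and 3.64% were lower without overlap, and the same shares stand beside the counts of the lists that follow. The median log2 fold change was −0.32, against 0.01 over all genes tested. The 4 with the smallest p were Gja5, the gap junction protein connexin 40 (log2 fold change −0.99, SE 0.14), Mybphl, a myosin-binding protein of atrial muscle (−0.55, SE 0.12), Dkk3, a secreted protein of the Dickkopf family (−0.65, SE 0.16), and the transcription factor Tbx5 (−0.37, SE 0.12). Nppa, the atrial natriuretic peptide, named here after its values were seen, had 0.18 (SE 0.27) with its highest value, 3213 CPM, in Med12cKO replicate 3. The summed level of the 12 was 4837 to 6824 CPM in control and 4560.3 to 6144 CPM in Med12cKO, and none was at 0. Most of this sum was Nppa (1579 to 2283 CPM in control, 1677 to 3213 CPM in Med12cKO) and Pam (2445 to 3517 and 2167 to 2641 CPM). Both overlapped, so the sum says little about the other markers. The part of atrial tissue in the Myl7 result was not tested. Of 8 ventricular markers 0 passed edgeR, 6 had a negative log2 fold change and 5 were lower without overlap, against 3.64% of all genes, led by the transcriptional repressor Hey2 (−1.04, SE 0.15), the calcium pump inhibitor Pln (−0.76, SE 0.16), Lbh (−0.66, SE 0.14) and the potassium channel subunit Kcnip2 (−0.74, SE 0.18), with a median log2 fold change of −0.70. Irx3 (0.39, SE 0.22) and Irx5 (0.46, SE 0.22), named after their values were seen, were positive and overlapped. Markers lower without overlap were thus found for both chambers.

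Transcription factors known to act on heart muscle genes, including light chain genes, gave 0 calls among 15 tested. The median log2 fold change was −0.17, and 12 were negative. Hey2, Gata6 (−0.42, SE 0.13) and Tbx5 had an unadjusted p under 0.05 and were lower without overlap, 3 of 15 against 3.64% of all genes. Heavy chains, the partners of these light chains, gave 0 calls among 5 tested of 8. Of the 5, 3 had a negative and 2 a positive log2 fold change, and 2, Myh7 and Myh7b, were lower without overlap, against 3.64% of all genes. Myh6, the most abundant, overlapped, with means of 12805 and 9860 CPM (−0.38, SE 0.25). Myh3 (1.83, SE 0.91) and Myh8 (1.38, SE 0.76) were positive, overlapped and were highest in Med12cKO replicate 1. Myh7, the slow heavy chain that prevails in the fetal mouse ventricle, measured 3575, 6782 and 2688 CPM in control and 1233, 1799 and 2475 CPM in Med12cKO (log2 fold change −1.24, SE 0.39), and Myh7b had −0.72 (SE 0.21).

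Light chains of smooth muscle and of cells outside muscle had positive fold changes. Of 6 genes 5 were tested, 0 passed edgeR, and all 5 had a positive log2 fold change, with a median of 0.30. Myl9, the smooth muscle regulatory chain, measured 696, 519 and 331 CPM in control and 796, 984 and 958 CPM in Med12cKO (log2 fold change 0.83, SE 0.25; edgeR unadjusted p = 0.0092). Myl6, the essential chain of smooth muscle and other cells, measured 129, 105 and 108 CPM against 142, 166 and 182 CPM (0.52, SE 0.14; edgeR unadjusted p = 0.0041). Both were higher without overlap, as were 4.59% of all genes. Smooth muscle markers stood beside them with 7 of 8 positive, 1 called (Cnn1, log2 fold change 1.70, SE 0.20) and none at 0. Over all genes Cnn1 was the only one called higher (edgeR adjusted p = 0.0464). In several of the alternatives given at the end no gene was called higher. Of the smooth muscle markers only Cnn1 was higher without overlap, and the other markers overlapped. Their summed level was 1801 to 2424 CPM in control and 2536 to 3256 CPM in Med12cKO. Des, desmin, took 1082 to 1324 CPM of this sum in control and 1090 to 1651 CPM in Med12cKO. The part of smooth muscle cells in the values of Myl9 and Myl6 was not tested.

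Genes that set the phosphorylation of the light chains, other than Mylk3, gave 0 calls and 0 unadjusted p under 0.05 among 12 tested of 13. They included the smooth muscle kinase gene Mylk, the calmodulins and the subunits of myosin phosphatase. Their median log2 fold change was 0.09. Calm3 and Ppp1r12c were higher without overlap, at 0.18 (SE 0.12) and 0.14 (SE 0.11). Ppp1r12b measured 67.4 CPM in control replicate 2 and 73.8 CPM in Med12cKO replicate 2 and at most 3.54 CPM in the other 4 libraries. These genes were chosen after their values were seen.

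Med12cKO replicate 1, the library that was high in Mylpf, was high in other skeletal muscle genes too. Of 22 skeletal muscle markers 13 were tested, 0 passed edgeR, 4 had an unadjusted p under 0.05, all higher, and 12 had a positive log2 fold change, with a median of 1.51. Of the 22, 19 had their highest value in that library. Their summed level was 124 to 173 CPM in control and 684, 376 and 407 CPM in Med12cKO replicates 1 to 3. Without Acta1, skeletal actin, and Casq1, a calcium-binding protein of the sarcoplasmic reticulum, a split made after the values were seen, it was 47.5, 56.4 and 52.3 CPM in control and 259, 66.4 and 49.0 CPM in Med12cKO. Acta1 (56.0, 51.2 and 39.6 against 232, 86.9 and 109 CPM) and Casq1 (41.7, 65.7 and 32.0 against 192, 222 and 249 CPM) were higher than every control in all 3 Med12cKO libraries, as were Mybpc1, Mybpc2 and Tnnt3. These were 5 of the 13 tested, against 4.59% of all genes, and the other tested markers overlapped. For Tnnt3 the gap was small, 5.27 CPM in Med12cKO replicate 3 against 5.07 CPM in control replicate 3. Tnni2 lay below every control in Med12cKO replicates 2 and 3, at 2.57 and 2.26 CPM against 4.67 to 7.25 CPM. Mybpc1 and Mybpc2, myosin-binding proteins of skeletal muscle, had log2 fold changes of 2.36 (SE 0.75) and 1.17 (SE 0.24). No marker was at 0 in every library. Of the myogenic factors on the list, Myog was at most 1.24 CPM, Myod1 0.338 CPM and Myf6 0.226 CPM, each in Med12cKO replicate 1. Pax7 was at most 0.287 CPM, in control replicate 3, and Myf5 0.115 CPM, in control replicate 1. The highest of these counts was 11 reads, for Myog. The part of skeletal muscle tissue in the values of Mylpf and Myl1 was not tested.

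**Figure D5:**
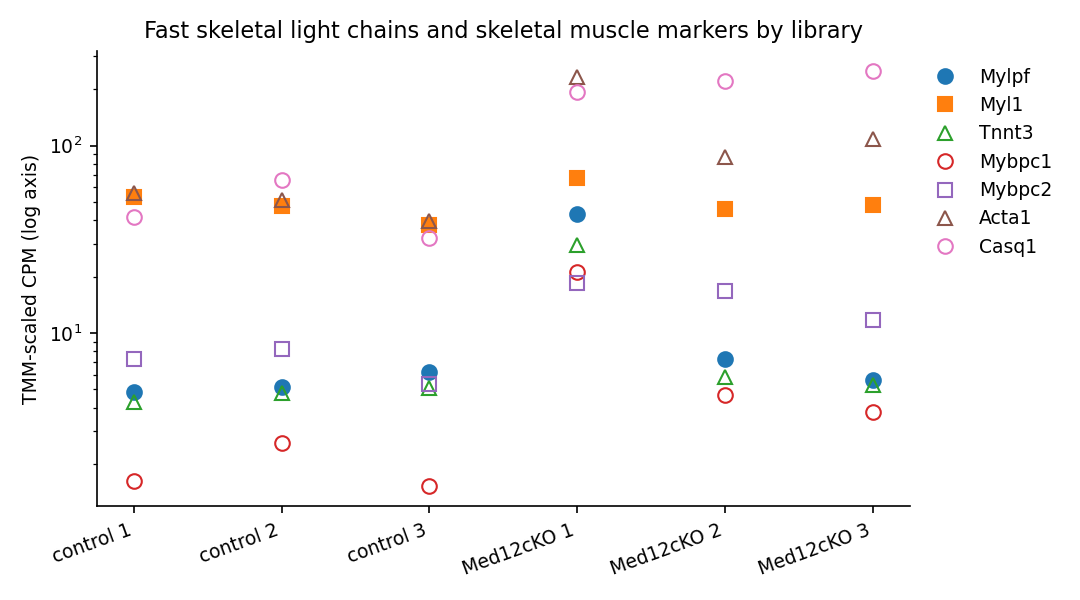
TMM-scaled CPM on a log axis of Mylpf and Myl1 (filled) and of 5 skeletal muscle genes (open) in each library (x axis). Mylpf, Tnnt3 and Mybpc1 stand out in Med12cKO replicate 1, at 43.4, 29.3 and 21.2 CPM. The 5 skeletal muscle genes shown are those, of 13 tested, that lay above every control in all 3 Med12cKO libraries.

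Genes whose pattern over the 6 libraries was most like that of a member were sought among 10784 genes with a mean log2 CPM of at least 3, by Pearson r on log2 CPM. For Myl7 they were Vsnl1 (0.991), Adamts8 (0.986), the calcium pump gene Atp2a2 (0.986), the ephrin gene Efna5 (0.981) and the glucose transporter gene Slc2a1 (0.979), and 15 genes exceeded 0.95. All 5 were lower in Med12cKO without overlap, as were 3.64% of all genes. Likeness to Myl7, itself lower without overlap, selects such genes, so this adds nothing to the Myl7 result. For Myl2 they were Hopx, a homeodomain-only protein of heart muscle (0.994), Car14 (0.993), Mettl5 (0.993), Dusp28 (0.989) and Gsto1 (0.988), with 89 genes above 0.95. For Myl4 they were Ankrd9 (0.991), Gstm7 (0.985), Fam104a (0.985), Rbp7 (0.982) and Cnih1 (0.980), with 28 above 0.95. For Mylpf they included Tnnt3, fast skeletal troponin T (0.997; 4.26, 4.76 and 5.07 CPM in control and 29.3, 5.82 and 5.27 CPM in Med12cKO), Gsr (0.970) and Lrrc28 (0.969), with 7 genes above 0.95, and this likeness rests on Med12cKO replicate 1. With 6 libraries that share groups, depth and scaling, such values describe the libraries only.

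The letter that opens a library's description, J for control replicate 1 and Med12cKO replicate 2 and I for the other 4, also splits the samples, and the labels do not say what it stands for. Within letter I the controls of Myl7 measured 1149 and 901 CPM and the Med12cKO libraries 496 and 432 CPM (log2 fold change −1.13, SE 0.20, edgeR, p after adjustment 0.701). Within letter J, with 1 library per group, the values were 1240.4 and 609 CPM. The groups did not overlap for Myl7, so any split that keeps both groups gives lower values in each part. The split by letter therefore adds nothing to the Myl7 result. Myl3 did not keep its sign within letter I, where its log2 fold change was 0.048 (SE 0.28).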

How the data were processed

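RNA from both ventricles was isolated with TRIzol, per the labels' protocols. The authors deposited raw read counts for each symbol, with no normalization. The submitters' processing notes name TopHat2 2.0.0, featureCounts, edgeR 3.14.0 and GRCm38 (mm10), and the annotation and strand setting are not given in the sources used here. The 6 columns were matched to samples by description, and groups came from titles.

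The test was edgeR 4.0.16's robust quasi-likelihood F test (R 4.3.3) with TMM scaling and filterByExpr (minimum count 10, minimum total 15), at an adjusted p under 0.05. Each SE was taken as the log2 fold change over the root of F. Exact two-sided permutation tests used log2 CPM with a prior count of 2. Isoform shares, ratios and lists carry no test. Lengths and positions came from GENCODE M21. Alternatives were DESeq2 1.42.0 on the same genes, limma-voom (limma 3.58.1), other scalings and filters, blocks and omitted libraries, and, added later, the exon union length. The fit was tested on simulated counts.

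The members and lists were chosen with earlier results of these data known. Named genes were the members, Med12, up to 4 genes per list with the smallest unadjusted p under 0.05, and the 5 genes most like Myl2, Myl7, Myl4 and Mylpf, and any others were named after their values were seen. A few genes this rule names are not reported here but were kept in every fit and count. A count of 0 allows up to 3 counts, 0.275 to 0.355 CPM, counting error only.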

Additional observations from a re-analysis of the deposited data

How the results depend on the processing

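Myl7 kept a negative log2 fold change in all 17 alternatives (−1.24 to −0.99). It passed in DESeq2 only, with adjusted p between 0.081 and 0.744 in the other 16. The other 6 members passed in none. Leaving out 1 library moved Myl2 between −0.48 and −0.16 and Myl3 between −0.47 and −0.08. Without Med12cKO replicate 3 an unadjusted p under 0.05 in edgeR was reached by 4 members (Myl2, Myl3, Myl7 and Mylpf). It was reached there by 1071 of all genes, against 515 with all 6 libraries. None of the 4 passed, and their lowest edgeR adjusted p was 0.257, for Myl7. The sign turned in 1 alternative each for Myl1 (−0.11 without control replicate 3 and Med12cKO replicate 1) and Myl3 (0.048 with letter I only); leaving out 1 library gave 0.01 to 0.33 for Myl1; both settings use 4 libraries. Mylpf ranged from 0.24, without Med12cKO replicate 1, to 2.22.

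Over all genes, 1 was called higher and 2 lower. DESeq2 called 32 higher and 33 lower. The number called higher was 0 with DESeq2's size factors in edgeR, with the replicate block, with letter I only and without robust dispersion (519, 537, 574 and 514 genes of either direction at an unadjusted p under 0.05, against 464 in DESeq2 and 515 as reported), and 2 with library totals only and without control replicate 3 and Med12cKO replicate 1. With letter I only 1 was lower. Leaving out 1 library gave 0 to 1 higher and 1 to 2 lower, and 331 (without control replicate 2) to 1071 genes (without Med12cKO replicate 3) at an unadjusted p under 0.05; 323 were reached without control replicate 3 and Med12cKO replicate 1; 0 were higher without control replicate 1 or Med12cKO replicate 3, and 1 was lower without the latter. The cause was not tested.

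Whether replicate numbers pair the samples cannot be told from these values. Same-numbered libraries had correlations of −0.31, 0.44 and −0.35 of their deviations from the group means. Control replicates 1 and 3 correlated best with another number, and control replicate 2 with its own. The highest value, 0.71, was between control replicate 3 and Med12cKO replicate 1, both of which held thymus transcripts. With the replicate number as a block no member changed its call, and Myl7 had a log2 fold change of −1.10 (edgeR adjusted p = 0.168). Without division by length the Myl7 share was 13.5% in control and 8.37% in Med12cKO. With the exon union length, added after the data were seen, the Myl4 share was 9.71% and 12.4%. Counting error was at most 1.58% for Myl2, Myl3, Myl4, Myl7 and Mylk3, 5.03% for Myl1 and 15.4% for Mylpf, so depth limits Mylpf most.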
